A study of Mus musculus with 4 samples.

Results

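The genes described here are 10 regulators of effector differentiation in lymphocytes: Prdm1, Irf4, Batf, Batf3, Id2, Id3, Bach2, Ikzf1, Ikzf3 and Myb. They were taken by gene symbol from a table of 24061 gene rows, in which all 10 had a row. The cells were effector regulatory T cells (Tregs) of mouse Peyer's patches, the lymphoid follicles of the small intestine, sorted as CD4-positive, FoxP3-positive and negative for CD62L from mice of 13 weeks. Of 4 RNA-seq libraries, 2 were labelled flox (flox 1 and flox 2, Maf flox/flox with FoxP3-YFP-cre) and 2 were labelled wt (wt 1 and wt 2, Maf+/+ with FoxP3-YFP-cre). Both genotypes thus had Cre and a yellow fluorescent protein expressed from Foxp3, so that Cre acts in the Treg lineage, on a C57BL/6 background at backcross generation 5. About 40000 cells went into each sample. Whether the libraries of a genotype came from different mice is not stated, and p-values therefore reflect the spread between these 4 samples, which may be technical.

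Naive and resting T cells are held back from effector differentiation by repressors such as Bach2, and T cell receptor signals then raise Irf4 and Batf, whose proteins bind DNA together at composite sites. Prdm1 encodes Blimp-1, a zinc finger repressor that marks the most differentiated effector cells, including the Tregs of mucosal tissues that make interleukin 10. Id2 and Id3 encode proteins that bind E proteins and keep them off DNA, and the balance of Id3 against Id2 and Blimp-1 is known to shift as T cells differentiate.

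Maf, the targeted gene, was at odds with the labels of 2 libraries, wt 2 and flox 1. It had 0.725 CPM (counts scaled to library size) in flox 2 and 1.98 CPM in wt 2, against 122 CPM in flox 1 and 149 CPM in wt 1. The libraries numbered 2 in their titles were therefore low in Maf and those numbered 1 were high, whatever their labelled genotype. The factors were compared both by number (numbered 2 over numbered 1) and by label (flox over wt). The comparison by number was chosen with these Maf levels known. It puts together libraries by a number in their titles and moves none to another genotype, and anything else shared by libraries of 1 number cannot be told apart from the Maf level. The values that the authors normalized and deposited carry the same arrangement, since 100% of them were recovered within a relative error of 1e-06 with the libraries grouped by number, and 3.25% with the libraries grouped by label.

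Gene totals lay between 19368745 and 24687897 counts per library. Foxp3 had 104 CPM in flox 2 and 104 CPM in wt 2, against 91 CPM in flox 1 and 93.8 CPM in wt 1. Of the T cell and Treg markers, Cd3e, Cd3d, Cd4 and Il2ra had between 323 and 1370 CPM in every library, and Ikzf2 had between 174 and 215 CPM. Of all 7 such markers 1 was called lower by number, as were 1.41% of all tested genes. It was Ctla4 (log2 fold change -0.85, edgeR quasi-likelihood adjusted p = 0.0270), which is described with the effector genes below. The library flox 2 stood apart in heat shock genes, named here after their values were seen, with 892 CPM of Hspa1a in flox 2 and 103 CPM in wt 2, against 80.9 CPM in flox 1 and 35.5 CPM in wt 1. The library wt 1 was lowest in markers of epithelial cells, whose 8 genes summed to 278 CPM in flox 2 and 351 CPM in wt 2, against 356 CPM in flox 1 and 146 CPM in wt 1. Log2 fold changes without each library are given for Prdm1, Irf4, Ikzf3 and Myb, whose calls by number changed with the library left out. Those fits leave 1 library in a group, so their calls of these factors are not listed.

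Promoter windows from RefSeq (GRCm38.p6) were found for 9 of the 10 genes, and none was found for Ikzf3. Below are the 250 bases before the RefSeq transcript start of Prdm1, Irf4 and Myb, the 3 genes of the set with the largest negative log2 fold changes by number in the values that follow. RefSeq starts can differ from the gene limits given below, which are those of GENCODE. The Prdm1 window lies inside the longer GENCODE gene and overlaps none of its exons, and 7 bases of the Irf4 window lie in its first GENCODE exon. The Id3 window is not shown because all its 250 bases lie in a GENCODE exon. Capitals mark a match to the AP-1 site TGANTCA or to the E-box CANNTG, the kinds of site bound by AP-1 factors such as BATF and by the E proteins that Id2 and Id3 hold off DNA. Positions are chr10:44458749-44458998, minus strand, for Prdm1, chr13:30748983-30749232, plus strand, for Irf4, and chr10:21160985-21161234, minus strand, for Myb.
Prdm1: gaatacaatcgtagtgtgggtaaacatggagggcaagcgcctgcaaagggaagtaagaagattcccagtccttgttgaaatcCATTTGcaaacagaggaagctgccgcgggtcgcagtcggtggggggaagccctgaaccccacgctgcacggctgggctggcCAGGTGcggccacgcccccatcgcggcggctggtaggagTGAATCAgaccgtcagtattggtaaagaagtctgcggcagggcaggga
Irf4: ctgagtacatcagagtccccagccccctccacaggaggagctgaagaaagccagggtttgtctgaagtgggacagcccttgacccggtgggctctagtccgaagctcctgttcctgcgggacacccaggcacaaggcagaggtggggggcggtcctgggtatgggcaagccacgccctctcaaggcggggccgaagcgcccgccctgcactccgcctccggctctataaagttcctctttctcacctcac
Myb: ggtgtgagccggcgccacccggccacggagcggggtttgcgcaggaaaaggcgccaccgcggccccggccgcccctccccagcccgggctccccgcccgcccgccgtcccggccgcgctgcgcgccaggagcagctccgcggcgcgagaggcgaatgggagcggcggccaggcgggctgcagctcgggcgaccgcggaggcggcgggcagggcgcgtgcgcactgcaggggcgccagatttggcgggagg

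On both strands of the 10 windows of 300 bases (Ikzf1 has 2), the Maf half-site TGCTGAC and a tandem interferon regulatory element had no match. Of all 32851 RefSeq promoter windows, 4.67% held the first and 3.44% the second. The AP-1 site TGANTCA was found in 1 window, that of Prdm1, and is held by 7.81% of all windows. E-boxes were found in the windows of Batf, Batf3, Id2, Irf4, Myb and Prdm1, and in 72.3% of all windows. No match overlapped another. A match is a description of letters in a short window, and distal elements were not examined.

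Across the set, the libraries numbered 2 held less Prdm1, Irf4, Ikzf3, Bach2 and Myb RNA and more Id3 RNA than the libraries numbered 1, but none of these 6 factors passed the test over all genes. The test was edgeR's quasi-likelihood test with p adjusted over all tested genes by the Benjamini-Hochberg method (threshold 0.05). By number it called 0 of the 9 factors that passed the filter on low counts, where 1.81% of the 13022 tested genes were called. At an unadjusted p under 0.05 there were 6 of the 9 factors, and 13.6% of all tested genes. DESeq2 called 4 of the 9 (Prdm1, Irf4, Ikzf3 and Myb) and 4.91% of all tested genes. The edgeR likelihood ratio test called the same 4 factors and 4.67% of all tested genes, and limma-voom called 0 factors and 1.54%. Both numbered 2 libraries lay below both numbered 1 libraries for 7 of the 9 factors, an arrangement found for 22.5% of all tested genes. The opposite arrangement held for 1 factor, Id3, and for 22.7% of all tested genes. The median log2 fold change by number was -0.41 over the 9 factors and 0.01 over all tested genes. The factors were chosen with earlier results of these data known, so these counts and medians are not a test of the set against all genes. In bulk RNA, fewer cells of a type and less RNA per cell cannot be told apart.

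**Figure D1:**
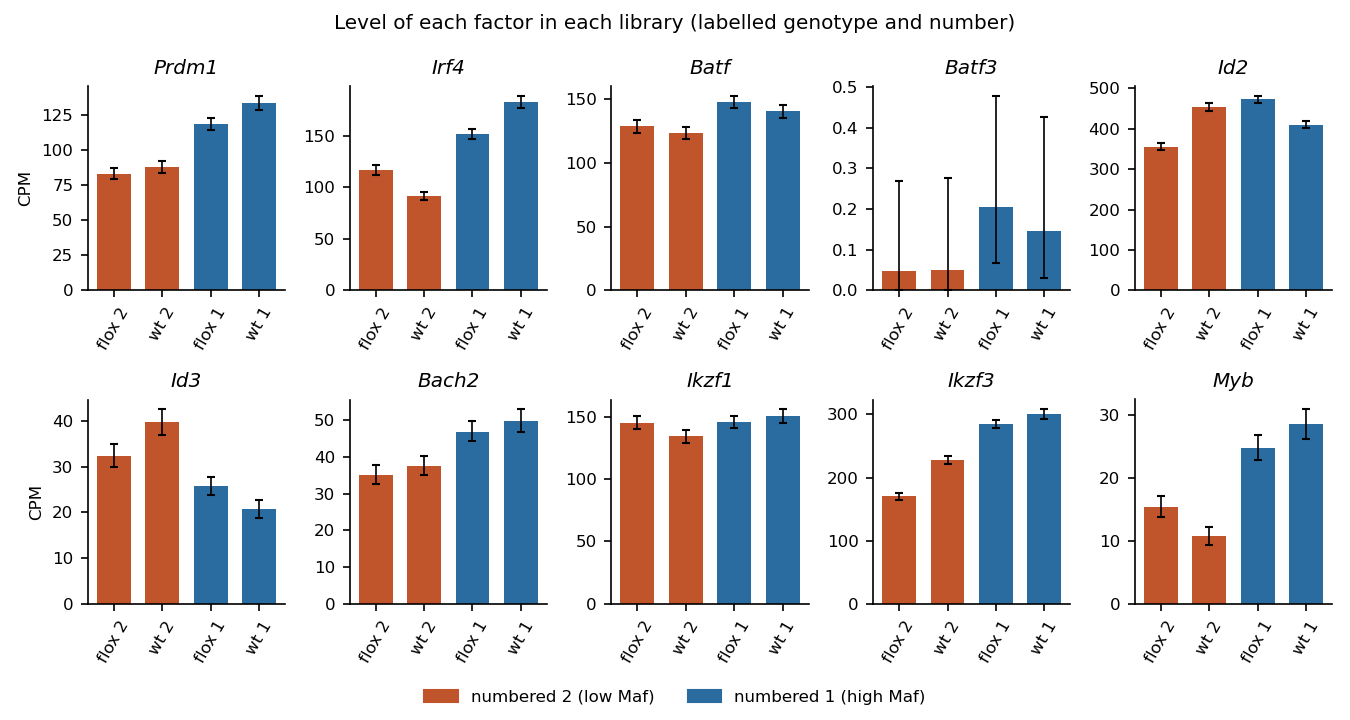
CPM of each of the 10 factors (1 panel each, vertical axes from 0 and scaled separately) in flox 2, wt 2, flox 1 and wt 1. Bars are single libraries, with exact Poisson 95% intervals that cover counting error only; the orange numbered 2 bars are lower than the blue numbered 1 bars for Prdm1, Irf4, Bach2, Ikzf3 and Myb and higher for Id3, for example 83.2 and 88 CPM against 118 and 134 CPM for Prdm1.

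Prdm1 is encoded on the minus strand of chromosome 10, from 44437177 to 44528501 (build mm10, as for all positions here). It had 83.2 CPM in flox 2 and 88 CPM in wt 2, against 118 CPM in flox 1 and 134 CPM in wt 1. Libraries of 1 number were close to each other and the groups by number did not overlap. Its means were 85.6 ± 3.34 CPM in the libraries numbered 2 and 126 ± 10.9 CPM in those numbered 1 (SD, n = 2 each). The log2 fold change was -0.56 (SE 0.10, 95% interval -0.79 to -0.32, edgeR quasi-likelihood adjusted p = 0.0551), so that Prdm1 missed the threshold narrowly and ranked 245th of all tested genes by p. Without wt 1 it was -0.46, without wt 2 -0.59, without flox 1 -0.65 and without flox 2 -0.51, and none of 12 alternative settings reversed the direction. Prdm1 passed with DESeq2 (adjusted p = 0.000954), the likelihood ratio test, no filter on low counts and a minimum of 1 CPM in 2 libraries. It did not pass in the other settings with all 4 libraries (edgeR adjusted p up to 0.0752, with total counts only).

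Irf4, the interferon regulatory factor that T cell receptor signals induce in proportion to their strength, lies on chromosome 13 at 30749226 to 30766976, plus strand. It had 117 CPM in flox 2 and 91.7 CPM in wt 2, against 152 CPM in flox 1 and 183 CPM in wt 1. The groups by number did not overlap, and the libraries labelled wt held both the lowest and the highest value. Its log2 fold change by number was -0.68 (SE 0.15, interval -1.04 to -0.32, edgeR adjusted p = 0.100). Without wt 1 it was -0.54, without wt 2 -0.51, without flox 1 -0.81 and without flox 2 -0.87. Irf4 passed with DESeq2 (adjusted p = 0.00193), the likelihood ratio test and no filter on low counts. It did not pass in the other settings with all 4 libraries (edgeR adjusted p up to 0.169, with the genotype label as a covariate).

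Batf, the AP-1 partner of Irf4, lies on chromosome 12 at 85686669 to 85709087, plus strand. It had 128 CPM in flox 2 and 123 CPM in wt 2, against 147 CPM in flox 1 and 140 CPM in wt 1. The groups were apart but close, with a log2 fold change of -0.19 (SE 0.08, interval -0.39 to 0.01, edgeR adjusted p = 0.385) and 0 calls in the 12 settings.

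Batf3, a related AP-1 factor best known from dendritic cells, was near the limit of detection. It had 1 count in flox 2 and 1 count in wt 2, against 5 counts in flox 1 and 3 counts in wt 1, and was removed by the filter on low counts. The ratio of library 2 to library 1 was 0.236 within the flox label (95% interval 0.00499 to 2.11) and 0.339 within the wt label (0.00646 to 4.22), so a difference was not detectable at this depth.

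Id2 lies on chromosome 12 at 25093799 to 25097140, minus strand, and Id3 on chromosome 4 at 136143497 to 136145755, plus strand. Id2 had 355 CPM in flox 2 and 453 CPM in wt 2, against 473 CPM in flox 1 and 410 CPM in wt 1. Its values overlapped by number, and the lowest was in flox 2. Id2 had a log2 fold change of -0.13 (SE 0.14, interval -0.46 to 0.20, edgeR adjusted p = 0.770), which was 0.04 without flox 2.

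Id3 was the only one of the 9 tested factors with more RNA in both libraries numbered 2. It had 32.4 CPM in flox 2 and 39.7 CPM in wt 2, against 25.7 CPM in flox 1 and 20.7 CPM in wt 1. Its means were 36.1 ± 5.16 CPM in the libraries numbered 2 and 23.2 ± 3.58 CPM in those numbered 1 (SD, n = 2 each), with a log2 fold change of 0.63 (SE 0.17, interval 0.22 to 1.05, edgeR adjusted p = 0.171). It passed in 1 of the 12 settings, the one with no filter on low counts (adjusted p = 0.0351, in a range of that value to 0.642).

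Bach2, a repressor that restrains effector genes, lies on chromosome 4 at 32238804 to 32586108, plus strand. It had 35.1 CPM in flox 2 and 37.5 CPM in wt 2, against 46.8 CPM in flox 1 and 49.7 CPM in wt 1. Libraries of 1 number differed by less than the groups did, and the log2 fold change was -0.41 (SE 0.11, interval -0.69 to -0.14, edgeR adjusted p = 0.179), with 0 calls in the 12 settings. An antisense gene, Bach2os, overlaps 5.40% of its exon bases, and reads of both cannot be told apart without strand, whose use is not given.

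The Ikaros family is represented by Ikzf1 and Ikzf3, whose difference by number was not compared between them. Ikzf1 (Ikaros, chromosome 11 at 11685003 to 11772926, plus strand) had 145 CPM in flox 2 and 134 CPM in wt 2, against 145 CPM in flox 1 and 150 CPM in wt 1. Its log2 fold change was -0.08 (SE 0.09, interval -0.29 to 0.12, edgeR adjusted p = 0.756). Ikzf3 (Aiolos, chromosome 11 at 98464902 to 98546031, minus strand) had 171 CPM in flox 2 and 228 CPM in wt 2, against 285 CPM in flox 1 and 301 CPM in wt 1. Both numbered 2 libraries were below both numbered 1 libraries for Ikzf3, with flox 2 the lowest. Its log2 fold change was -0.55 (SE 0.14, interval -0.90 to -0.21, edgeR adjusted p = 0.152). Without wt 1 it was -0.51, without wt 2 -0.77, without flox 1 -0.60 and without flox 2 -0.36. Ikzf3 passed with DESeq2 (adjusted p = 0.00894), the likelihood ratio test and no filter on low counts. It did not pass in the other settings with all 4 libraries (edgeR adjusted p up to 0.251, with total counts only).

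Myb, which encodes the lymphocyte and progenitor factor c-Myb and is required in mice for effector Treg differentiation, lies on chromosome 10 at 21124935 to 21160984, minus strand. It had 15.4 CPM in flox 2 and 10.7 CPM in wt 2, against 24.7 CPM in flox 1 and 28.4 CPM in wt 1. These are 318 and 217 counts in flox 2 and wt 2, against 603 and 585 counts in flox 1 and wt 1. Its log2 fold change of -1.02 (SE 0.21, interval -1.53 to -0.51, edgeR adjusted p = 0.0858) was the largest in size among the 9 tested factors. Without wt 1 it was -0.92, without wt 2 -0.78, without flox 1 -1.13 and without flox 2 -1.30. Myb passed with DESeq2 (adjusted p = 0.00420), the likelihood ratio test and no filter on low counts. It did not pass in the other settings with all 4 libraries (edgeR adjusted p up to 0.112, with the genotype label as a covariate). An antisense transcript, Gm26577, overlaps 6.26% of its exon bases.

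**Figure D2:**
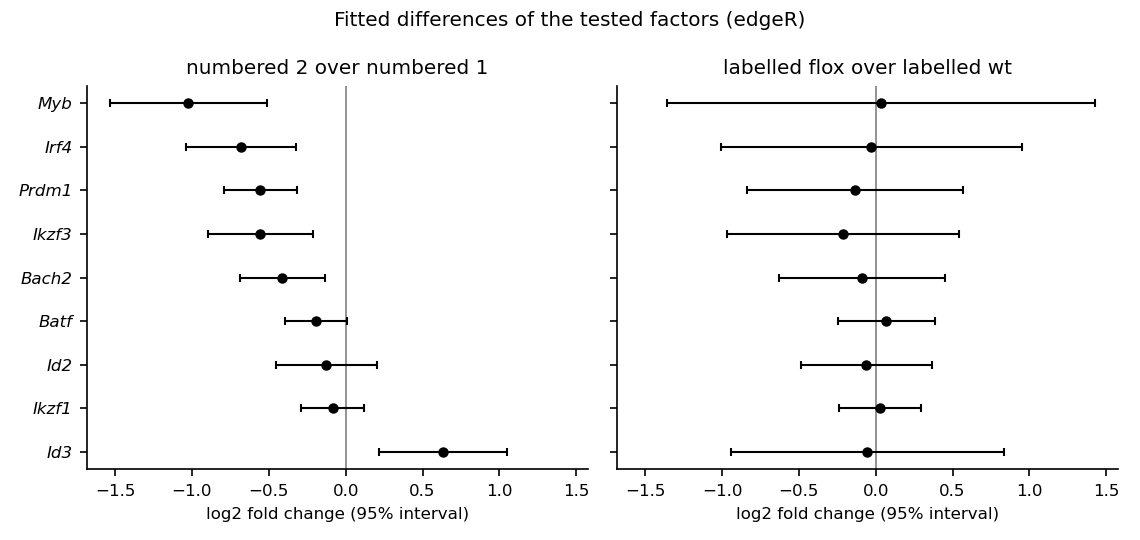
Log2 fold changes of the 9 tested factors with 95% intervals from the edgeR fit, numbered 2 over numbered 1 on the left and labelled flox over labelled wt on the right. By number the intervals of Myb, Irf4, Prdm1, Ikzf3 and Bach2 lie below 0 and that of Id3 above, before adjustment for all genes, while by label each of the 9 intervals spans 0.

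By label, 0 of the 9 factors passed the edgeR quasi-likelihood test and 0 had an unadjusted p under 0.05, where 0.00768% of all tested genes were called and 1.98% had such a p. DESeq2 and the likelihood ratio test also called 0 of the 9, and 0.0922% of all tested genes each, while limma-voom called 0 genes. Prdm1 averaged 101 ± 24.7 CPM in flox and 111 ± 32.3 CPM in wt (SD, n = 2 each), with a log2 fold change of -0.14 (SE 0.27, interval -0.84 to 0.57). Irf4 averaged 135 ± 24.7 CPM in flox and 137 ± 64.6 CPM in wt, and Myb averaged 20 ± 6.59 CPM in flox and 19.6 ± 12.5 CPM in wt. The spread within a label exceeded the difference between labels for these 3 genes. Both libraries labelled flox lay above both labelled wt for 0 of the 9 factors and 13.2% of all tested genes, and below them for 0 factors and 13.8%. The Myb interval by label ran between -1.36 and 1.43, the widest of the 9.

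Within each label, 1 library stands on each side, so that ratios of library 2 to library 1 have counting error only and no replicate check. Of the 9 tested factors, 7 had ratios under 1 in both labels and 1, Id3, above 1 in both. The share of all tested genes with such ratios was not counted, so these counts only describe the factors. Prdm1 had a ratio of 0.704 within flox (95% binomial interval 0.663 to 0.748) and 0.658 within wt (0.620 to 0.699). For Bach2 these were 0.749 (0.681 to 0.823) and 0.754 (0.686 to 0.830), and for Batf 0.870 (0.827 to 0.915) and 0.878 (0.832 to 0.927). For these 3 genes the intervals of both labels overlapped. Irf4 stood further apart within wt, with ratios of 0.770 (0.731 to 0.811) within flox and 0.501 (0.473 to 0.530) within wt. Myb and Id3 did so too, with 0.623 (0.542 to 0.714) within flox and 0.377 (0.321 to 0.442) within wt for Myb, and 1.26 (1.13 to 1.41) within flox and 1.92 (1.71 to 2.17) within wt for Id3. Ikzf3 stood further apart within flox, with 0.60 (0.576 to 0.625) within flox and 0.758 (0.729 to 0.788) within wt. Ikzf1 had 0.996 (0.949 to 1.05) within flox, which passes 1 when scaled to total counts alone (1.001), and 0.892 (0.847 to 0.939) within wt.

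**Figure D3:**
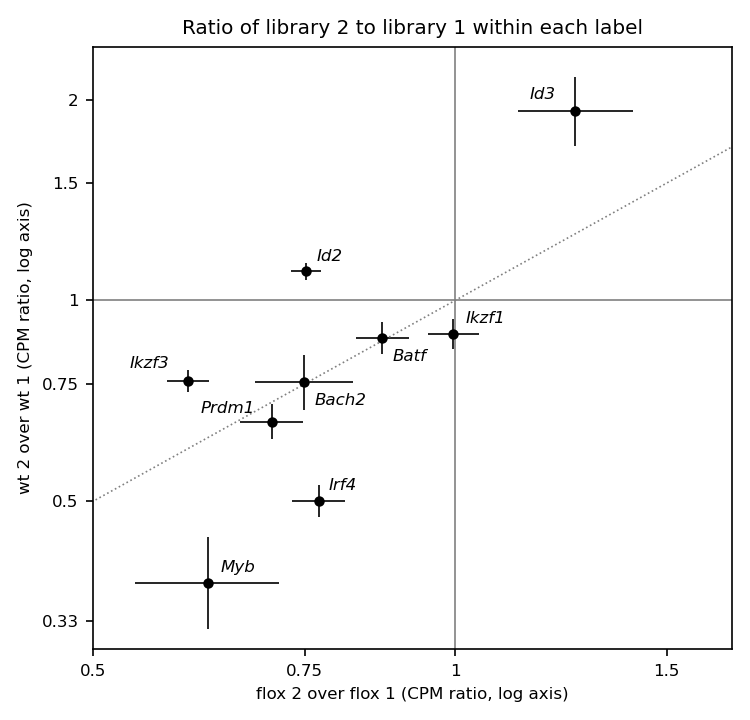
Ratio of library 2 to library 1 within the flox label (horizontal) and within the wt label (vertical) for the 9 tested factors, log axes, with 95% binomial intervals for counting error only. Points on the dotted line have equal ratios; Prdm1, Bach2 and Batf lie near it, Irf4, Myb and Ikzf3 off it, Id3 above 1 in both labels, and Id2 at 0.752 within flox and 1.105 within wt.

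Levels of different genes were compared only per length, as CPM per kilobase of exon averaged over the 4 libraries. Id2 was the most abundant, with 173 CPM per kb (lowest 146, highest 194), followed by Batf with 95.8 CPM per kb (87.4 to 105). Ikzf3 (28.1 CPM per kb, 19.5 to 34.4), Irf4 (27.7, 18.7 to 37.3) and Ikzf1 (24.9, 23.2 to 26.0) came next and did not differ beyond their ranges over libraries. Prdm1 had 19 CPM per kb (14.9 to 23.9) and Id3 had 16.5 CPM per kb (11.5 to 22.2), with overlapping ranges. Bach2 had 4.25 CPM per kb (3.53 to 5), Myb had 2.22 CPM per kb (1.20 to 3.18) and Batf3 had 0.0702 CPM per kb (0.0303 to 0.128), each below the range of the gene before it. The Id2 level per kb was thus above that of Id3 in every library, also in the libraries numbered 2 where Id3 had its highest values.

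No tested partner or relative of the factors, from 5 lists of such genes, passed by number. Among the E proteins and other Id genes, 0 of 4 tested passed by number. Tcf3, an E protein that Id2 and Id3 bind, had 169 CPM in flox 2 and 187 CPM in wt 2, against 175 CPM in flox 1 and 193 CPM in wt 1. Tcf4, another E protein, had 10 CPM in flox 2 and 7.71 CPM in wt 2, against 15.3 CPM in flox 1 and 12.5 CPM in wt 1 (edgeR adjusted p = 0.296). Of the other Ikaros genes, 0 of 3 passed. Ikzf4 (Eos, a Foxp3 partner) had 269 CPM in flox 2 and 247 CPM in wt 2, against 209 CPM in flox 1 and 188 CPM in wt 1 (log2 fold change 0.38, SE 0.09, edgeR adjusted p = 0.142), and Ikzf2 (Helios) overlapped by number. Of the other Bach and Myb family genes 0 of 2 passed, of the other Irf genes 0 of 7, and of the partners of BATF and IRF4 0 of 7. Junb, a partner of BATF, had 7234 CPM in flox 2 and 5673 CPM in wt 2, against 8193 CPM in flox 1 and 8730 CPM in wt 1 (edgeR adjusted p = 0.228).

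Other factors of effector lineages held called genes. By number, 4 of 19 tested fell and 0 rose, with a median log2 fold change of -0.10. Of all tested genes 1.41% fell and 0.399% rose. The list was chosen with earlier results of these data known, so its count is not a test against all genes. Nr4a1, an immediate target of T cell receptor signals, had 1828 CPM in flox 2 and 1784 CPM in wt 2, against 3782 CPM in flox 1 and 3934 CPM in wt 1 (edgeR adjusted p = 0.00158). Tox2 and Zeb2 also fell (edgeR adjusted p = 0.0256 and 0.0407), calls that were lost without wt 1 and without flox 1, and for Zeb2 also with limma-voom and with the genotype label as a covariate. Zeb2 was low throughout, with 1 count in flox 2 and 7 counts in wt 2, against 122 counts in flox 1 and 102 counts in wt 1. Bcl6, the follicular factor that Blimp-1 opposes, had 162 CPM in flox 2 and 111 CPM in wt 2, against 253 CPM in flox 1 and 260 CPM in wt 1, in the same direction as Prdm1 (log2 fold change -0.91, SE 0.18, edgeR adjusted p = 0.0890). Of the resting and memory factors 0 of 12 passed. Tcf7, which encodes the TCF-1 of resting and memory cells, had 461 CPM in flox 2 and 625 CPM in wt 2, against 709 CPM in flox 1 and 841 CPM in wt 1 (edgeR adjusted p = 0.264), and Foxo1 had 543 CPM in flox 2 and 558 CPM in wt 2, against 688 CPM in flox 1 and 691 CPM in wt 1 (edgeR adjusted p = 0.103).

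Among genes of the effector programme that Irf4 and Blimp-1 are known to serve, 4 of 18 tested fell and 1 rose by number. Of all tested genes 1.41% fell and 0.399% rose. This list too was chosen with earlier results of these data known, so its count is not a test against all genes. Il10 had 26.8 CPM in flox 2 and 24.5 CPM in wt 2, against 385 CPM in flox 1 and 429 CPM in wt 1 (log2 fold change -3.99, SE 0.11). Lag3 and Ctla4, both inhibitory receptors, and Tigit fell with log2 fold changes of -1.14, -0.85 and -0.65, while the chemokine receptor Cxcr3 rose (0.77). The call of Lag3 was lost without wt 1, and those of Ctla4, Tigit and Cxcr3 without wt 1 and without flox 1, that of Tigit also with limma-voom and the covariate, and that of Cxcr3 with limma-voom. Of the genes that did not pass, Icos and Itgae are named after their values were seen. Icos had 858 CPM in flox 2 and 608 CPM in wt 2, against 1323 CPM in flox 1 and 1183 CPM in wt 1 (edgeR adjusted p = 0.139). Itgae, an integrin of tissue T cells, had 1561 CPM in flox 2 and 1359 CPM in wt 2, against 860 CPM in flox 1 and 568 CPM in wt 1 (edgeR adjusted p = 0.149). Of the central and resting programme genes 0 of 10 passed. By label 0 genes of any of these lists passed.

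**Figure D4:**
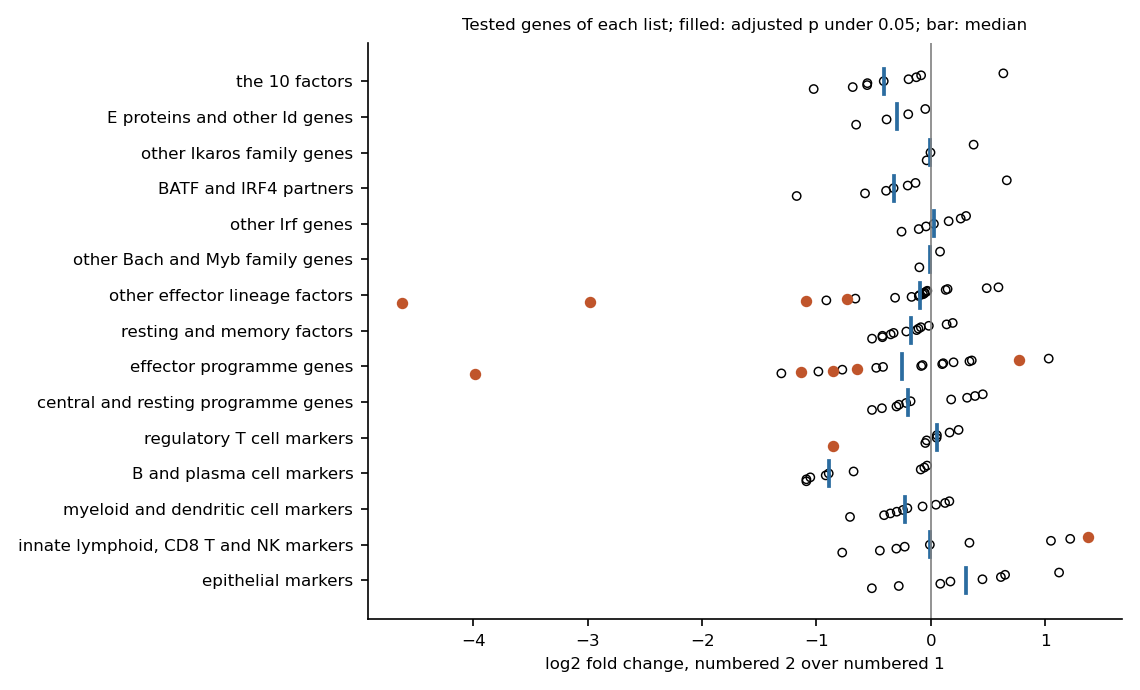
Log2 fold change by number (numbered 2 over numbered 1) of each tested gene of the 10 factors and 14 lists. Filled circles passed the edgeR test over all genes and bars are list medians. The 9 tested factors have a median of -0.41 with no filled circle. The filled circles lie mostly among the effector lists, and the lists were chosen with earlier results of these data known.

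Several of the factors are also expressed by B cells and plasma cells, and the markers of these cells were set beside them. Of 12 B and plasma cell markers 9 were tested and 0 passed by number, with a median log2 fold change of -0.89. Their summed level was 278 CPM in flox 2 and 264 CPM in wt 2, against 338 CPM in flox 1 and 278 CPM in wt 1, most of it from Xbp1 with 198 to 234 CPM. The B cell surface gene Ms4a1 had 4.40 CPM in flox 2 and 6.28 CPM in wt 2, against 9.75 CPM in flox 1 and 7.29 CPM in wt 1, and the B cell kinase gene Blk had 1.06 CPM in flox 2 and 1.78 CPM in wt 2, against 4.10 CPM in flox 1 and 1.94 CPM in wt 1. Pax5 was below 1 CPM in every library. Of the 9 tested markers 8 were highest in flox 1, as were 2909 of the 13022 tested genes and 2 factors, Batf and Id2. Prdm1, Irf4, Bach2, Ikzf1, Ikzf3 and Myb were highest in wt 1, and Id3 was highest in wt 2. The part of B cells in the values of the factors was not tested. Of the innate lymphoid, CD8 T and natural killer markers, 1 of 9 tested rose by number, the receptor gene Klrb1c, with 68.5 CPM in flox 2 and 44.9 CPM in wt 2, against 21.3 CPM in flox 1 and 22.6 CPM in wt 1, a call lost with limma-voom, without wt 1 and without flox 1. Their sum was 320 CPM in flox 2 and 508 CPM in wt 2, against 292 CPM in flox 1 and 106 CPM in wt 1, and Ncr1 was at 0 in both libraries numbered 2. Myeloid and dendritic cell markers summed to 61.2 CPM in flox 2 and 74.6 CPM in wt 2, against 109 CPM in flox 1 and 29.1 CPM in wt 1, with 0 of 10 passing, and Clec9a, of the dendritic cells that need Batf3, was at 0 in both libraries numbered 2. Of the epithelial markers 0 of 8 passed. The part of these cells in the values of the factors was not tested.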

How the data were processed

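RNA from sorted Tregs was sequenced in 4 libraries. Per the labels' protocols, Trizol lysates were cleaned on columns and an mRNA kit for very low input was used. The submitters' processing notes name mm10, edgeR 3.14, HTSeq 0.6.1 and TopHat2 2.1.1. Their settings, the gene annotation and any use of strand are not given in these sources. The authors deposited raw counts per gene symbol (24061 gene rows and 5 summary rows, which held 66.6% to 67.2% of the column totals and were left out). A second table from the authors holds filtered, normalized values, a signal near the raw counts that is never negative, which was set beside the counts with no count test. Pseudo-counts of classic edgeR, recomputed from the raw counts under each grouping, showed which grouping those values carry.

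Genes were kept by filterByExpr (13022), scaled by TMM and tested in R 4.3.3 with edgeR 4.0.16 (glmQLFit, robust, and glmQLFTest) on all 4 libraries, with Benjamini-Hochberg adjustment at 0.05, once by the number in the titles and once by labelled genotype. Standard errors are log2 fold changes divided by the root of the F statistic, and edgeR's common coefficient of variation between libraries was 0.194 by number and 0.273 by label. With 2 libraries against 2, the smallest two-sided p of an exact permutation test is 0.333, and no such test was run. Count intervals are exact Poisson and ratios exact binomial, at 95%. Exon lengths and coordinates are from GENCODE M21. Alternatives were DESeq2 1.42.0, limma 3.58.1 (voom), the likelihood ratio test, other scalings and filters, a covariate or block, and leaving out each library. The edgeR test by number was checked on simulated counts with the spread fitted to these libraries. It called 18 of 12578 genes simulated without a difference. It called 15 of 48 genes with a true log2 fold change of -1 and 29 of 50 with 1. For -2 and 2 these were 34 of 45 and 46 of 50, so real changes of the size seen for most factors could be missed. The 18 false calls were a larger share of all calls in this simulated set than the threshold of 0.05, so a call can also be false. The members and lists were chosen with earlier results of these data known. Named genes were the 10 factors, Maf and Foxp3, up to 4 genes of each list by smallest p by number, and 8 known partners or antagonists; the text gives some of these. Other genes were named after their values were seen. Some genes of the lists are counted but not reported by name here.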

Additional observations from a re-analysis of the deposited data

Results flagged for a closer look

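Id2 differed in direction between the labels. The ratio of library 2 to library 1 was 0.752 within flox (95% binomial interval 0.730 to 0.774) and 1.105 within wt (1.07 to 1.14). With 1 library on each side in each label, the difference between the labels was not tested. The low value is that of flox 2, the library with the most Hspa1a RNA, and the part of that library's state was not tested. Without flox 2 the log2 fold change of Id2 by number was 0.041.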

How the results depend on the processing

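By number, the factors called were 4 of 9 with DESeq2 and with the likelihood ratio test, against 0 of 9 in the reported fit. With no filter on low counts Batf3 was fitted too, and 5 of 10 factors were called beside 589 of 18575 genes. With a minimum of 1 CPM in 2 libraries only Prdm1 was called, beside 248 of 12084 genes. Whether Prdm1, Irf4, Ikzf3 and Myb passed also changed with the library left out, in fits that leave 1 library in a group. No factor but Id2 changed direction by number in any of the 12 alternatives, and Id2 did so only without flox 2 (0.041). Calls over all genes by number were 236, but 640 with DESeq2, 608 with the likelihood ratio test, 589 with no filter and 46 to 525 with 1 library left out, the lowest without wt 1. With the genotype label as a covariate 212 genes and 0 factors were called. By label, 1 gene was called, but 12 with DESeq2, 12 with the likelihood ratio test, 2 with no filter, 0 with limma-voom and 0 with any 1 library left out (262 at an unadjusted p under 0.05 by limma-voom, 202 to 430 with a library left out). The factors were called by label in 0 alternatives. The cause of these moves was not tested.

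By label, directions of log2 fold changes near 0 turned. With limma-voom Irf4 was 0.043 and Id3 0.0042. With the replicate block (the title number as a block) Irf4 was 0.039 and Id3 0.0076, and 1 gene was called. With 1 library left out, Prdm1 ran between -0.41 and 0.20, Irf4 between -0.44 and 0.55, Batf between -0.033 and 0.17, Id2 between -0.28 and 0.13, Id3 between -0.45 and 0.50, Bach2 between -0.31 and 0.13, Ikzf1 between -0.047 and 0.11, Ikzf3 between -0.63 and 0.11, and Myb between -0.50 and 0.90. The differences of library 1 from library 2 within flox and within wt correlated at 0.26 over the tested genes. Any difference by number, that of Maf included, enters this value, so it cannot show whether the numbers pair animals. With only 2 pairs, the numbers were not taken to pair animals. With the authors' deposited normalized values, ratios of mean levels by number moved by less than the spread between labels for all 9 factors. Those values were recovered from the same raw counts grouped by number, so they are not a separate check. Scaling to total counts alone moved 6 ratios within a label past their counting interval. Counts under 10 leave Batf3 beyond what this depth can compare.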
